A study of Mus musculus with 16 samples.

Results

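The ion channel families are genes that encode the pores, and the auxiliary subunits of those pores, through which ions cross cell membranes. Members were taken by symbol: a row belonged when any of its gene names began with Kcn, Cacn, Scn, Trpv, Trpm, Trpc, Clcn, Clic, Ano, P2rx, Gria, Piezo, Orai, Itpr or Ryr, with a digit required after Scn, Trp, Ano, Itpr and Ryr. Of the 6000 gene names in the 3 deposited tables, 48 were members. The table on quiescent hepatic stellate cells (qHSCs) held 43 member rows of 5716, the table on GFP-high activated cells (aHSCs) held 3 of 123, and the table on GFP-intermediate aHSCs held 7 of 419. These totals are rows with a gene name, and 108 and 149 further loci without a name in the last 2 tables were left out of every count. By comparison, 209 genes of the mouse annotation follow the same naming rule, and the named rows are genes that the authors called as different. For the last 2 tables the study's text counts fewer genes than these named rows, for a reason not given.

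The cells were labelled as hepatic stellate cells of C57/Bl6 mice, the pericyte-like cells of the liver sinusoid, which turn into scar-forming myofibroblasts after injury. The qHSC samples came from 3 uninjured WT1CreERT2;Ai14 mice, in which tamoxifen given at E10.5 switched on a red lineage label (RFP) in cells then expressing WT1. The Cre is knocked into 1 WT1 allele of these animals, and the other is intact. Each liver gave an RFP-positive and an RFP-negative sorted fraction, hence 3 samples in each group. The aHSC samples came from mice aged 8 to 12 weeks at the start and given CCl4 for 8 weeks, and all of them carried PDGFRbCre, Ai14 and 1 WT1 allele replaced by GFP, the controls included. Controls were PDGFRbCre;WT1_+_GFP;Ai14, and WT1-deleted mice were PDGFRbCre;WT1_fl_GFP;Ai14, in which the other allele was floxed. RFP-positive cells were sorted as GFP-high (3 control and 3 deleted samples) or GFP-intermediate, called GFP low in the labels (2 control and 2 deleted samples, 1 of the controls pooled from 2 animals). PDGFRbCre acts constitutively in the stellate and myofibroblast lineage rather than from a chosen time. WT1CreERT2 marks only cells that expressed WT1 when tamoxifen was given, and their progeny. The qHSC animals were adults, with no exact age given in the sources used here. In the qHSC table, listed markers of sinusoidal endothelial cells summed to a far higher level than listed stellate cell markers in both fractions, with values given beside the results. However, all 15 endothelial markers had a row and only 8 of 15 stellate cell markers did. The levels of the other stellate cell markers are unknown, so these sums do not give the make-up of the fractions. All samples were labelled male, and the study's methods name female mice for the qHSC isolation.

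Each table gave 1 FPKM (fragments scaled by transcript length and by the number mapped) for each group, in which the authors had combined the replicates. Neither a spread between animals nor a depth accompanied these values, so no error, interval or test can be attached to them here. The tables were normalised separately, and levels are compared only within a table. A log2 ratio below is the base-2 logarithm of one group's FPKM over the other's. No member was listed at 0.

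Ion channels are classed by the ion they pass and by what opens them. Potassium channels set the resting potential and repolarise the membrane, voltage-gated calcium and sodium channels open on depolarisation, and auxiliary subunits set the amount, the location and the kinetics of the pores that they join. Calcium also enters through Orai channels when stores are emptied, and leaves the endoplasmic reticulum through inositol trisphosphate and ryanodine receptors. In non-excitable cells such as liver sinusoidal and immune cells, potassium channels keep the potential negative and thereby sustain calcium entry.

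The members shown here recur below, 4 because they had a row in more than 1 table (Scn7a, Kcnk13, Kcna3 and Kcnn4) and Clic4 because it had the highest FPKM of the family. The bases just upstream of their annotated starts, from RefSeq (GRCm38.p6), are shown 5′ to 3′ on each gene's own strand. The windows are chr2:66784915-66785160 on the minus strand for Scn7a, chr12:99964249-99964498 on the plus strand for Kcnk13, chr3:107035912-107036161 on the plus strand for Kcna3, chr7:24370013-24370262 on the plus strand for Kcnn4 and chr4:135272815-135273010 on the minus strand for Clic4. Capitals mark GCGTGGGCG, a published site for WT1 and the related EGR zinc fingers, in Scn7a and Clic4, and TGTGGT, the core site for RUNX factors, in Kcnn4, each read on either strand.
Scn7a: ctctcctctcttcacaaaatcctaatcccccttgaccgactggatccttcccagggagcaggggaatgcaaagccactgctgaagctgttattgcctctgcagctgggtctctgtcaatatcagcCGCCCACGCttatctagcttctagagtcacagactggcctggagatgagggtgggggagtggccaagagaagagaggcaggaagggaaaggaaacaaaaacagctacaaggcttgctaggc
Kcnk13: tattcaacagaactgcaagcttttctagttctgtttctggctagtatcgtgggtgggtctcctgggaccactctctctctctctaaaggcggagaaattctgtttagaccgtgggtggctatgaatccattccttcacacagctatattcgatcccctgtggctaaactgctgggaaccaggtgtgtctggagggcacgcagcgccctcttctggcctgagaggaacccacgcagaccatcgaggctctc
Kcna3: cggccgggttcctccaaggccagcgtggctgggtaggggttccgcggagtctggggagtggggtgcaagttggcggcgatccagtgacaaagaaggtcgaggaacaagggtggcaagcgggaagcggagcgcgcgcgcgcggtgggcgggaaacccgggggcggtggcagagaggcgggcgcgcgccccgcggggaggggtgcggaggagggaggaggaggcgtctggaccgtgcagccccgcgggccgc
Kcnn4: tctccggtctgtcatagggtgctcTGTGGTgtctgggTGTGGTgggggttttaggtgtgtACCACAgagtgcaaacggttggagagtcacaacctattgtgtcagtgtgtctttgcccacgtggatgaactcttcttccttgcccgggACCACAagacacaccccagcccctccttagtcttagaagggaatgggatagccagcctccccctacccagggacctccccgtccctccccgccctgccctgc
Clic4: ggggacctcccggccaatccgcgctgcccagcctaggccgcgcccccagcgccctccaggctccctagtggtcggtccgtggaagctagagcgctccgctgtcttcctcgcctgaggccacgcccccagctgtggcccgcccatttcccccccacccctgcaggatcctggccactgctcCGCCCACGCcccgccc

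The GCGTGGGCG letters lay on the opposite strand in both genes, and TGTGGT occurred 4 times upstream of Kcnn4. The Kcnk13 and Kcna3 windows held neither. Over 32851 RefSeq windows, 0.536% held GCGTGGGCG and 14% held TGTGGT, within the 250 bases before a start. Of the 48 member genes, 34 had a window, and GCGTGGGCG occurred in Clic4 and Scn7a of these, while TGTGGT occurred in Ano10, Kcnj5 and Kcnn4. The looser GNGTGGGNG, which includes every GCGTGGGCG match, was found in 8 member windows and in 12.7% of all windows. TGANTCA, which includes the AP-1 site, was in 0 member windows and 6.75% of all, and TATAAA was in Kcnj16 and Trpm2 and 12.4% of all. The windows of Kcna3 (74.4% G or C, with 31 CG pairs) and Clic4 (74.5%) stood above that of Scn7a (53.7%, with 3 CG pairs). A match is a string of letters and shows no binding.

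The first comparison asked how qHSCs that carry the embryonic mesothelial lineage label differ from those that do not. Of the 43 member rows, 16 (37.2%) had a higher FPKM in lineage label-positive than in label-negative qHSCs, against 50.4% of all 5716 rows. The other 27 (62.8%) were lower, against 49.6% of all rows. At a difference of at least 2-fold, 14 members were higher (37.7% of all rows) and 26 were lower (43.5% of all rows), and at 4-fold 1 was higher (6.91% of all rows) and 21 were lower (26.1% of all rows). The median log2 ratio was -1.90 over the members and 0.64 over all rows. The median of the higher members (1.45) lay near that of all higher rows (1.31), whereas the median of the lower members (-2.92) lay below that of all lower rows (-2.02). These shares describe rows already selected by the authors' test, and no difference between the members and the other rows was tested.

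Members were expressed at low levels. In 17 of the 43 rows (39.5%) both groups had an FPKM below 1, as against 11.1% of all rows, and 12 rows (27.9%) reached 10 in either group, as against 57.9%. Low rows leaned the same way across the table: among all rows below 1 in both groups, 69.3% were lower in label-positive cells. Of the 26 members that reached 1, 11 were higher, against 52.9% of all such rows, and 15 were lower, against 47.1%. Summed over the 43 members, FPKM was 317 in the label-negative and 413 in the label-positive fraction, a difference set by Clic4 alone, which made up 88.1 and 228 of these sums. Thus most members were lower in number, while the summed level was higher.

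**Figure D1:**
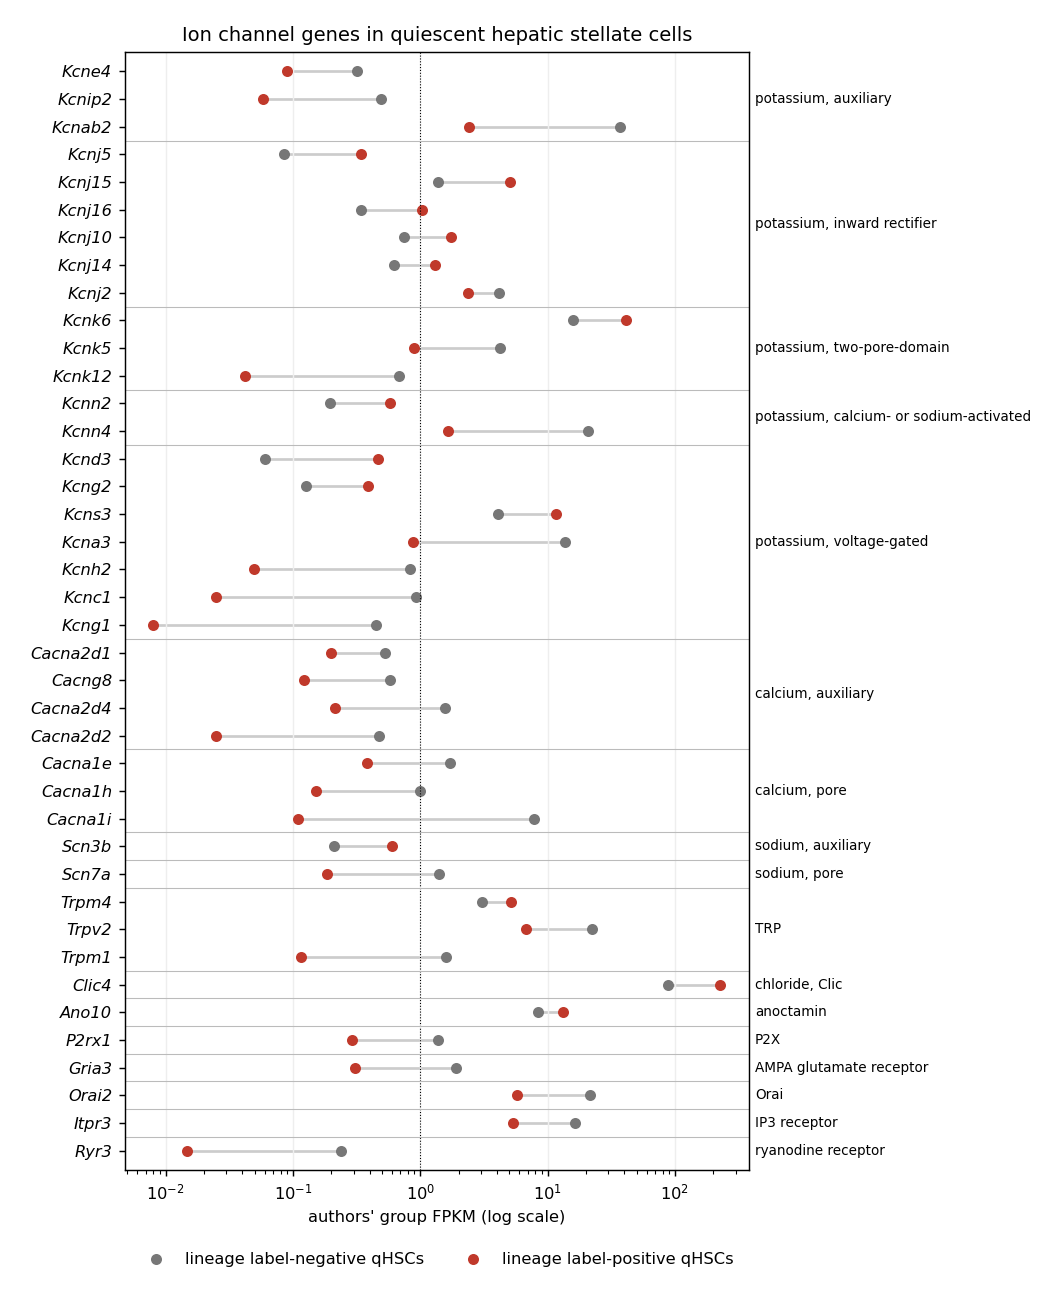
FPKM of 40 ion channel rows in label-negative and label-positive qHSCs, on a logarithmic axis. Each pair of points is 1 gene with the authors' group values from 3 animals, no error being available, and genes are arranged by channel class. Clic4 has the highest values in both fractions, and every Cacn, Orai, Itpr and Ryr row drawn is lower in label-positive cells.

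Clic4, a chloride intracellular channel protein that occurs in soluble and membrane forms and has been linked to endothelial tube formation, had the highest FPKM of any member in both groups, 88.1 without the lineage label and 228 with it (log2 ratio 1.37). Ano10, of the anoctamin family of calcium-activated chloride channels and lipid scramblases, was at 8.35 and 13.2 (0.66, the smallest ratio among the higher members). Both chloride rows were thus higher in label-positive cells. None of the 9 annotated Clcn chloride channels and transporters had a row.

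Of the sodium channel rows, Scn3b, an auxiliary beta subunit, was at 0.21 in the label-negative and 0.60 in the label-positive fraction (log2 ratio 1.51), below 1 in both. The only pore-forming member with a row was Scn7a, the atypical channel that responds to extracellular sodium rather than to voltage, and it was at 1.40 without the lineage label and 0.19 with it (-2.92). None of the classical voltage-gated sodium pores had a row. A gene without a row was not called by the authors, which says nothing of its level.

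Potassium channels made up 23 of the 43 rows, 11 higher and 12 lower in label-positive qHSCs, out of 99 annotated. Their summed FPKM was 118 in the label-negative and 96.4 in the label-positive fraction. By subclass, 5 of 6 inward rectifier rows and 0 of 3 auxiliary subunit rows were higher, against 50.4% of all rows, and no difference between subclasses was tested.

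Inward rectifiers pass potassium more readily into the cell than out and hold the resting potential. Of 6 rows, 5 were higher in label-positive qHSCs. Kcnj15 was at 1.38 and 5.11 in label-negative and label-positive cells (log2 ratio 1.89). Kcnj10 was at 0.74 and 1.73, and Kcnj16, whose product is known to assemble with that of Kcnj10, was at 0.35 and 1.03 (1.57). These partners were therefore both higher in the same fraction, each at a low level. Kcnj14 was at 0.62 and 1.31 (1.07), and Kcnj5, a G protein-gated channel, stayed below 1 in both groups (0.086 and 0.34). The exception was Kcnj2, the classical strong rectifier of muscle and endothelium, at 4.19 without the lineage label and 2.38 with it (-0.82, the smallest ratio among the lower members). Kcnj16 (chr11:110968033-111027968) and Kcnj2 (chr11:111066164-111076821, both GRCm38) are neighbours 38.2 kb apart on the plus strand, and their group values differed in opposite directions.

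The voltage-gated potassium channel rows numbered 9, of which 4 were higher. Kcns3, a silent subunit that forms channels only together with other voltage-gated subunits, was at 4.11 in the label-negative and 11.6 in the label-positive fraction. Kcng1 and Kcng2 encode silent subunits of the same kind, and both were below 1 in each group, Kcng2 higher (0.13 and 0.39) and Kcng1 lower (0.45 and 0.0080, log2 ratio -5.83) in label-positive cells. Kcnd3, the pore of a transient outward current, had the largest positive ratio among the qHSC rows (2.94), but at FPKM of only 0.061 and 0.47.

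Kcna3, the voltage-gated channel best known from T lymphocytes, was at 13.7 without the lineage label and 0.87 with it (log2 ratio -3.98). An antisense gene, Gm27008, is annotated over its short locus (chr3:107036169-107038070, GRCm38). Kcnab2, the cytoplasmic beta subunit that joins Kcna pores, was the most abundant member in label-negative cells after Clic4, at 37.0, and was at 2.43 in label-positive cells (-3.93). Kcnn4, a calcium-activated channel that sustains calcium entry in activated lymphocytes and is also known from red cells, was at 20.7 and 1.64 (-3.66). The ratios of these 3 genes lay close together. Kcnc1, a fast-gating pore, and Kcnh2, the pore of a repolarising current of the heart, were lower and below 1 in both groups, with a log2 ratio of -5.22 for Kcnc1.

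The tandem-pore-domain channels, which carry background potassium current, had 3 rows. Kcnk6 was at 15.7 in the label-negative and 41.4 in the label-positive fraction (log2 ratio 1.40). Kcnk5, an acid-sensitive channel, was lower, at 4.24 and 0.90. Kcnk12 was below 1 in both groups (-4.00). Of the calcium-activated potassium channels, Kcnn2 was higher at levels below 1 (0.20 and 0.58), opposite to its relative Kcnn4. Besides Kcnab2, the auxiliary subunits Kcnip2, a calcium-binding partner of Kcnd pores, and Kcne4, a single-span subunit, were lower and below 1 in both groups, so that 3 of 3 auxiliary rows were lower.

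**Figure D2:**
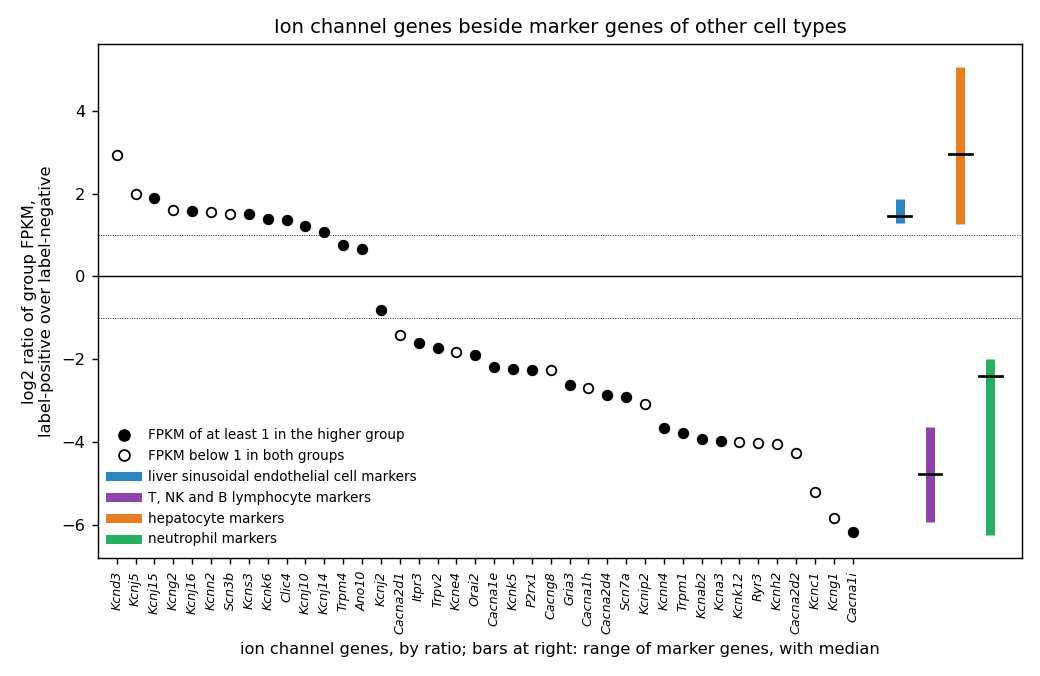
Log2 ratio of FPKM in label-positive over label-negative qHSCs for 40 ion channel rows, ordered by ratio, beside bars for the range and median of 4 marker gene lists. Filled points reached an FPKM of 1 in the higher group and open points did not. The Cacn, Orai, Itpr and Ryr rows drawn lie below 0, and the higher members lie between 0.66 and 2.94, a span that contains the sinusoidal endothelial marker range of 1.28 to 1.86.

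All 10 rows of calcium-permeable pores and subunits from the voltage-gated, store-operated and release families were lower in label-positive qHSCs, against 49.6% of all rows. Several of them were below 1 in both groups, where 69.3% of all such rows were lower. The set of 10 joins the voltage-gated rows with the 3 store-operated and release rows, a grouping that was not planned beforehand. The voltage-gated calcium channel rows (7 of 26 annotated) summed to 13.7 FPKM without the lineage label and 1.20 with it. Most of this was Cacna1i, a low-threshold T-type pore, at 7.88 and 0.11, which had the lowest ratio of the family (log2 -6.17). Cacna1e, the R-type pore, was at 1.72 and 0.38 (-2.18), and Cacna1h, another T-type pore, was just below 1 in label-negative cells (0.99 and 0.15). Of the alpha2delta subunits, which bring calcium pores to the surface, Cacna2d4 was at 1.56 and 0.21, and Cacna2d1 and Cacna2d2 were below 1 in both groups (-1.41 and -4.27). Cacng8, named for the calcium channel but known chiefly as an auxiliary subunit of AMPA glutamate receptors, falls under the same prefix and was below 1 in both groups (0.58 and 0.12).

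Of the channels that serve the calcium stores, Orai2, a pore of store-operated entry, was at 21.4 in the label-negative and 5.76 in the label-positive fraction (log2 ratio -1.90). Itpr3, an inositol trisphosphate receptor, was at 16.3 and 5.33 (-1.61). Ryr3, a ryanodine receptor, was at 0.24 and 0.015 (-4.04). The 3 rows together summed to 38.0 and 11.1 FPKM. The paralogues of these genes, such as Orai1, Itpr1 and Itpr2, had no row.

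The TRP family had 3 rows. Trpv2, a cation channel abundant in macrophages, was at 22.4 without the lineage label and 6.72 with it (log2 ratio -1.74). Trpm1, known from retinal bipolar cells and melanocytes, was at 1.6 and 0.12 (-3.78). Trpm4, which is opened by calcium but passes sodium and potassium rather than calcium, was at 3.07 and 5.2 (0.76), and it was the only TRP row that was higher. Among ligand-gated channels, P2rx1, an ATP receptor of platelets and smooth muscle, was at 1.39 and 0.29 (-2.26), and Gria3, an AMPA receptor subunit, was at 1.89 and 0.31 (-2.62). Neither Piezo gene had a row.

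Neighbouring members did not always share a direction. Chromosome 7 held 9 of the 43 rows, and of the neighbours Trpm4, Kcnj14 and Kcnc1 there, with gaps of 483 and 572 kb, Kcnc1 was lower and the other two were higher in label-positive qHSCs. Overlap with other genes bears on single values: 26 of the 48 member genes are overlapped by another annotated gene, 22 of them by one on the opposite strand. Whether reads were counted by strand is not given in the sources used here, so reads of such pairs cannot be told apart.

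Markers of other liver cell types differed between the same fractions. All 15 liver sinusoidal endothelial markers were higher in label-positive qHSCs, summing to 4984 FPKM in the label-negative and 13530 in the label-positive fraction, with log2 ratios from 1.28 to 1.86 (median 1.45). Of the 16 higher members, 9 had ratios inside that range, among them Clic4, Kcns3, Kcnk6, Scn3b, Kcnj16, Kcnn2 and Kcng2, as did 36.2% of all 2883 higher rows. All 15 lymphocyte markers were lower, summing to 1479 and 56.6, with ratios from -5.92 to -3.63 (median -4.78), and 10 of the 27 lower members lay inside that range, among them Kcna3, Kcnab2 and Kcnn4, as did 14.1% of all 2833 lower rows. Only 4 of these 10 members reached an FPKM of 1 in the higher group. Hepatocyte markers were higher in 15 of 15 (sums of 249 and 2077), and their wider range of 1.26 to 5.05 held 12 of the higher members and 54.2% of all higher rows. Of 13 neutrophil markers, 10 had a row and all 10 were lower (2382 and 472). Their range of -6.25 to -1.99 held 21 of the lower members, Kcna3, Kcnab2 and Kcnn4 included, and 48.8% of all lower rows. The ranges overlap, so a ratio inside one assigns a gene to no cell type. Of 13 macrophage markers with a row, 8 were higher, such as Clec4f (34.2 and 166), and 5 lower (sums over the 13 of 1969 and 1151). Lyz2, 1 of the lower ones, alone made up 1283 and 289 of these sums. Cholangiocyte markers had 3 rows of 8 and smooth muscle markers 2 of 8, all of them higher. None of these markers was listed at 0. For the labelled cell type itself, 8 of 15 qHSC markers had a row, 4 higher and 4 lower, summing to 147 and 112. The higher ones were Hgf (log2 ratio 1.37), Nes (1.98), Rgs5 (2.13) and Colec11 (1.998). The lower ones were Dcn, Pdgfrb (0.90 and 0.37), Vipr1 and Ngfr. Dcn alone made up 109 and 49.0 of the sums, so these mostly follow 1 gene. Lrat, Reln, Des, Gfap, Hand2, Ecm1 and Lhx2 had no row. In bulk samples, fewer cells of a type and less RNA per cell cannot be told apart, and the part of these other cell types in the ion channel values was not tested.

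The genes around the channels, taken from 4 lists of 159 genes, had 42 rows, 22 higher and 20 lower in label-positive qHSCs. Of 33 genes of store-operated and phosphoinositide calcium signalling, 15 had a row, 6 higher and 9 lower. The higher ones included Calm2, a calmodulin gene (383 without the lineage label and 817 with it), the kinase Camk1 (45.7 and 102) and Rcan1, an inhibitor of calcineurin (25.2 and 73.9). The lower ones included the calcineurin-dependent transcription factors Nfatc1 (33.8 and 16), Nfatc3 (32.4 and 17.3) and Nfatc2 (6.97 and 0.73), and the phospholipase Plcg2 (26.4 and 3.85). The phospholipases that generate inositol trisphosphate thus split, as Plcb2 was lower (22.1 and 2.93) and Plcb3 and Plcb4 were higher (14.7 and 36.4, and 17.6 and 49.6).

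Of 22 calcium pump, exchanger and mitochondrial uptake genes, 6 had a row, 4 of them higher. The endoplasmic reticulum pumps differed in opposite directions, with Atp2a3, the form of blood and endothelial cells, at 88.1 in the label-negative and 4.25 in the label-positive fraction (log2 ratio -4.37) and Atp2a2, the ubiquitous form, at 55.6 and 92.3 (0.73). Among the other rows, the plasma membrane pump Atp2b4 (36.5 and 82.2) and the mitochondrial uniporter Mcu (12.2 and 19.9) were higher and the plasma membrane pump Atp2b1 (31.0 and 21.0) was lower. Of 14 genes of the sodium/potassium pump, 1 was higher and 3 were lower, with Fxyd5 (656 and 228) and Atp1b1 (30.4 and 9.43) among the latter, while Fxyd1 was the higher one (7.82 and 18.8). Of 90 other channel genes, 11 were higher and 6 lower. The gap junction genes Gja1 (38.0 and 120) and Gja4 (49.0 and 115) and the mechanosensitive channel Tmem63a (50.1 and 78.0) were among the higher ones, and Tmc6 (60.6 and 29.2), the pannexin Panx1 (20.7 and 2.45) and Tmem38b, a counter-ion channel of the endoplasmic reticulum (13.3 and 5.66), among the lower ones.

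The other comparisons asked what deletion of WT1 altered in aHSCs after CCl4 injury. Shares below are of the named rows, which outnumber the genes counted in the study's text. Values of Wt1 itself were not analysed here, so the deletion was not checked from these tables. In GFP-high aHSCs all 3 member rows were higher in the deleted group, as were 77.2% of named rows, and 1 of them by at least 4-fold, as were 52% of named rows. There the median log2 ratio was 1.81 over the members and 1.83 over all named rows. Kcnk13, a background potassium channel of the tandem-pore-domain class known from microglia, was at 1.5 in control and 4.18 in WT1-deleted cells (1.48). Scn7a was at 0.50 and 1.76 (1.81). Scn4b, a sodium channel beta subunit, was at 0.19 and 0.85 (2.13), below 1 in both groups. Beside these rows, 6 of 13 neutrophil markers had a row, all lower in deleted cells (sums of 520 and 149). In contrast, 1 hepatocyte marker (0.23 and 1.20) and 1 smooth muscle marker (0.057 and 0.47) had a row and were higher. No macrophage, lymphocyte or sinusoidal endothelial marker and no gene of the 4 channel-related lists had a row there.

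**Figure D3:**
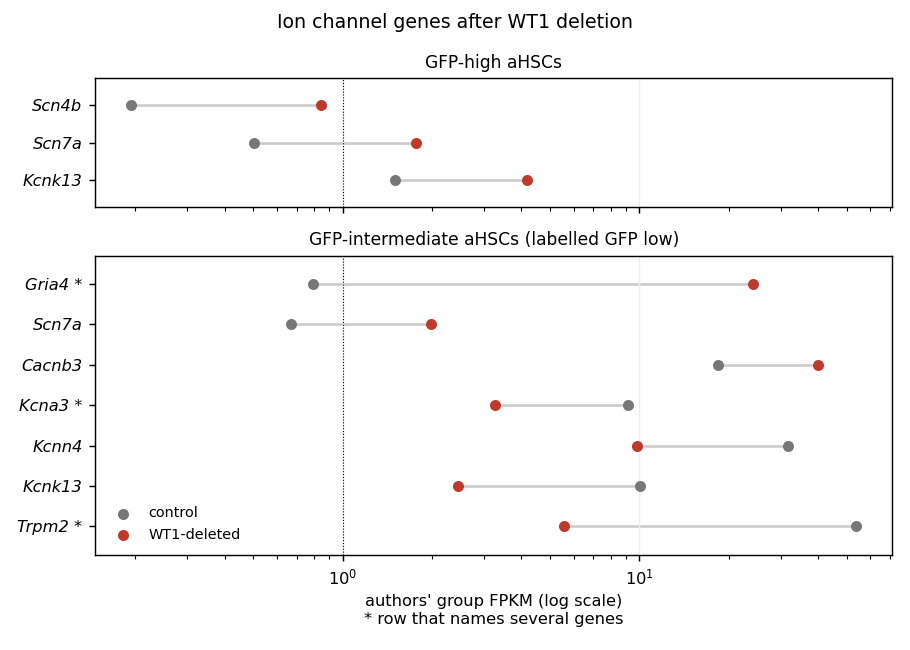
FPKM of the member rows in control and WT1-deleted aHSCs, on a logarithmic axis, with GFP-high cells (3 rows) and GFP-intermediate cells (7 rows) in separate panels since the tables were normalised separately. Each point is the authors' group value, without error, and an asterisk marks rows that name several genes. Scn7a is higher in deleted cells in both panels, whereas Kcnk13 is higher in the first and lower in the second.

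In GFP-intermediate aHSCs, 3 member rows were higher (37.2% of named rows) and 4 were lower (62.8% of named rows) in the WT1-deleted group, with a median log2 ratio of -1.49 over the members and -1.33 over all named rows. The members' median turned to 1.12 over the 3 rows left without genes overlapped by another gene, and was -0.28 over the 4 rows that name 1 gene only. Every named row of this table and of the GFP-high table differed by at least 2-fold. At 4-fold, 1 member was higher (11.9% of named rows) and 2 were lower (22% of named rows). The shares of the 7 members therefore lay near those of the table.

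Of the higher rows, Cacnb3, a beta subunit of voltage-gated calcium channels, was at 18.4 in control and 40.0 in deleted cells (log2 ratio 1.12). It was the only voltage-gated calcium channel row in either deletion table. Scn7a was at 0.67 and 1.98 (1.57). The remaining higher row named both CT030685.1 and Gria4, an AMPA receptor subunit, and was at 0.79 and 24.1 (4.92), a 30.4-fold difference and the largest of any member in the deletion tables. Gria4 spans chr9:4417896-4796234 (GRCm38) on the minus strand and contains the miRNA gene Gm23811. Because the row also names CT030685.1, its value cannot be assigned to Gria4.

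Of the 4 lower rows, 3 were potassium channels, and Kcnn4 and Kcna3 among them were also lower in label-positive qHSCs. Kcnn4 was at 31.8 in control and 9.85 in deleted GFP-intermediate aHSCs (log2 ratio -1.69). Kcna3, in a row shared with the long non-coding RNA AI504432, was at 9.16 and 3.25 (-1.49). Kcnk13 was at 10.1 and 2.46 (-2.04). Trpm2, a calcium-permeable channel of phagocytes that is opened by ADP-ribose under oxidative stress, shared its row with AC158612.1 and AC158612.2 and was at 53.8 and 5.57 (-3.27). The snoRNA genes Gm22394 and Gm22871 lie inside Trpm2 (chr10:77907722-77970563), and the row cannot be split between the names.

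Macrophage markers were lower in the same cells. Of 15, 11 had a value in 10 rows, C1qb and C1qc sharing 1, and all 10 rows were lower in deleted GFP-intermediate aHSCs, with sums of 5377 in control and 1350 in deleted cells and log2 ratios from -2.36 to -1.42 (median -1.90). The ratios of Kcnk13, Kcna3 and Kcnn4 lay inside this range, as did 53.6% of all 263 lower named rows, and that of Trpm2 lay below it. Neutrophil markers with a row were lower in 6 of 6 (750 and 227), with a range of -2.40 to -1.51 that held Kcnk13 and Kcnn4 and 43.7% of lower named rows. Of 15 sinusoidal endothelial markers only 3 had a row, Stab1 (120 and 30.8), Mrc1 (36.1 and 9.88) and Cdh5 (17.9 and 8.09). All 3 were lower (sums of 174 and 48.8), with a range of -1.97 to -1.15 that held Kcna3 and Kcnn4 and 60.1% of lower named rows. Other markers were higher in deleted cells, namely Epcam (1.30 and 5.70) and Sox9 (1.67 and 4.69) of cholangiocytes, Car3 (1.97 and 14.2) of hepatocytes, and Rgs5 (1.41 and 8.20) and Colec11 (2.92 and 10.7) of stellate cells, where Hgf was lower (9.45 and 3.35). No lymphocyte marker had a row. Of the 159 genes around the channels, 7 had a row. Fxyd1, a regulator of the sodium/potassium pump, was higher (11.1 and 38.0), and 6 were lower, among them the endolysosomal channel Tpcn2 (31.9 and 12.3) and the proton channel Hvcn1 (23.0 and 7.18). The part of these cell types in the values was not tested.

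Set side by side, 4 genes had rows in more than 1 table. Scn7a was lower in label-positive qHSCs (log2 ratio -2.92) and higher in WT1-deleted aHSCs of both gates (1.81 and 1.57), and its higher group never exceeded 1.98 FPKM. Kcna3 (-3.98 and -1.49) and Kcnn4 (-3.66 and -1.69) were lower in label-positive qHSCs and in deleted GFP-intermediate aHSCs, and neither had a row for GFP-high cells. The GFP-intermediate value of Kcna3 is that of the row shared with AI504432. Kcnk13 differed in opposite directions in the deletion tables, with ratios of 1.48 for the GFP-high and -2.04 for the GFP-intermediate gate. The aHSC samples came from 6 mice, and every mouse with a GFP-intermediate sample also gave a GFP-high sample. Only group values were at hand, so that the difference between the gates was not tested.

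**Figure D4:**
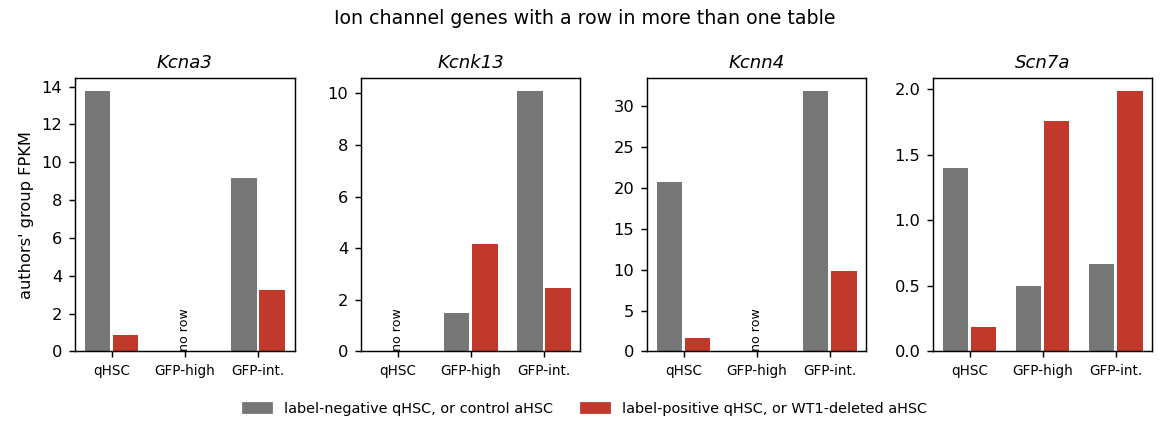
FPKM of the 4 ion channel genes with a row in more than 1 table, 1 panel for each gene. The GFP-intermediate row drawn for Kcna3 also names AI504432. Bars are the authors' group values without error on a linear axis from 0, grey for label-negative qHSCs or control aHSCs and red for label-positive qHSCs or WT1-deleted aHSCs. The tables were normalised separately, so bars compare only within a pair. Scn7a has 3 pairs of bars, and in Kcnk13 the red bar is the higher one for GFP-high and the lower one for GFP-intermediate cells.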

How the data were processed

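RNA from 16 sorted stellate cell samples was sequenced on an Illumina HiSeq, and the study's methods name bowtie 2 for mapping and Cuffdiff2 at an adjusted p of 0.05 for differential expression. The submitters' processing notes name TopHat2 2.0.3, Cufflinks 2.0.1, DESeq2 and the builds mm9 and mm10, without roles. The authors deposited 3 tables of called genes, each with 1 FPKM per group and their own fold changes, p-values and q-values. Those comparison columns were not used, beyond testing that no named row exceeded the threshold. FPKM divides by transcript length and mapped fragments, replicates had been combined, and depth is unknown.

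From the FPKM, log2 ratios, counts of rows and sums were computed with no pseudocount (Python 3.11.15, pandas 2.3.3, numpy 2.4.6, matplotlib 3.10.9), and the code was tested on simulated data. Member rows were named, those reaching an FPKM of 1 with full values, except that a few genes are not reported here by name or in the figures, although counts and sums include them, and for each other list the genes highest in FPKM came first. Nfatc2, Plcb2, Plcb3 and Plcb4 were chosen beside these after their values were seen. Members and lists were chosen with earlier results of these data known. Samples were grouped by their labels. Gene positions came from GENCODE vM21 (GRCm38), in which 5687 of 5716 qHSC gene IDs were found, all 43 member IDs among them, and upstream sequences from RefSeq. Alternatives were a minimum FPKM of 1, pseudocounts of 1 and 0.1, thresholds of 1.5-fold and 4-fold, rows naming 1 gene, no non-coding genes, and, chosen after seeing the data, no genes overlapped by another gene.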

Additional observations from a re-analysis of the deposited data

How the results depend on the processing

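No paired analysis was possible because each table holds 1 value per group, and for the same reason no replicate could be left out. With a minimum FPKM of 1, qHSC members were lower in 15 rows, and at least 2-fold higher in 9 and lower in 14. At a threshold of 4-fold, 1 member was higher and 21 lower in qHSCs, 1 higher in GFP-high aHSCs, and 1 higher and 2 lower in GFP-intermediate aHSCs. Without genes overlapped by another gene, chosen after seeing the data, qHSC members were higher in 7 rows and lower in 13 (7 and 12 at 2-fold), and 1 GFP-intermediate row was lower, at 2-fold too, with a median log2 ratio of 1.12 over 3 rows in place of -1.49 over 7, since that choice removed 4 rows. With rows naming 1 gene only, 2 GFP-intermediate rows were lower, at 2-fold too, with a median of -0.28 over 4 rows. A pseudocount of 1 brought the median to -0.53 in qHSCs and 0.88 in GFP-high aHSCs, as it shrinks ratios of low values. Adding the same pseudocount to both groups cannot change the direction of a member, so the pseudocounts bear only on the size of ratios. The low FPKM of many members, with depth unknown, limits the precision of their ratios.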
